A study of Mus musculus with 12 samples.

Results

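The genes that encode the enzymes and regulators of sterol and fatty acid synthesis were followed in the spinal cord of mice with and without the ALS transgene SOD1-G93A and with and without Plekhg5. The members are 30 genes chosen by symbol, of 45906 genes listed. Each symbol was found once, and all 30 passed the filter on low counts. They comprise 7 genes of the mevalonate and isoprenoid steps, 11 genes of the squalene and sterol steps, 6 regulators and sterol carriers and 6 genes of fatty acid synthesis.

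The 12 mice were 7 months old, with 3 mice in each of 4 genotypes, namely Plekhg5+/+ and Plekhg5-/- without the transgene and the same genotypes with it, written Plekhg5+/+ SOD1-G93A and Plekhg5-/- SOD1-G93A. RNA came from the whole spinal cord, so every cell type of the tissue contributes. SOD1-G93A mice carry a human SOD1 transgene with a substitution found in familial ALS, and the line used here is the slowly progressing "low copy" line. All strains shared a C57BL/6 background. Plekhg5-/- mice are deficient for Plekhg5, which encodes an exchange factor for small GTPases that acts in autophagy.

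Cholesterol is built from acetyl-CoA through mevalonate, isoprenoid units, squalene and lanosterol, and fatty acids are built from the same precursor. Transcription factors of the SREBP family, which are held in the endoplasmic reticulum when sterols are plentiful, switch on the genes of both pathways. In the adult spinal cord most cholesterol lies in myelin, the membrane sheath made by oligodendrocytes, and the tissue makes its own because cholesterol in blood hardly enters it.

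The libraries held between 30415643 and 38743628 counts. Plekhg5 was at 19.4 to 25.0 CPM (counts scaled to library size with the TMM method) in the Plekhg5+/+ genotypes and at 3.28 to 4.72 CPM in the Plekhg5-/- genotypes. Human SOD1 was at 4421 to 5638 CPM in the SOD1-G93A genotypes and at 0.153 to 5.47 CPM in the others, with the highest of the latter in Plekhg5-/- mouse 1. Markers of oligodendrocytes, astrocytes, microglia and neurons were detected in every library. Y-linked transcripts were present in all 3 Plekhg5+/+ libraries, in 2 of the Plekhg5-/-, in 2 of the Plekhg5+/+ SOD1-G93A and in 1 of the Plekhg5-/- SOD1-G93A libraries, so sex was not balanced over the genotypes.

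Per kilobase of exon, the levels of the members spanned a 91.1-fold range. The highest mean over the 12 mice was that of Scd2, a stearoyl-CoA desaturase that puts the double bond into new fatty acids, at 656 CPM per kilobase. It was followed by Scd1, its close paralog, at 147, by Acly, which makes cytosolic acetyl-CoA from citrate, at 110, and by Hmgcs1, which makes HMG-CoA, at 109 CPM per kilobase. The lowest were Lss, which closes squalene epoxide into lanosterol, at 8.04 and Hsd17b7, a reductase of late sterol synthesis, at 7.21 CPM per kilobase. In this order 25 neighbouring pairs overlapped in their ranges over the 12 mice, and Scd2, Scd1 and Msmo1 stood apart from each of their neighbours. The median member was at 20.3 CPM per kilobase, against 4.22 for the genes tested. Reads of Scd1, Scd2 and Insig1 were partly shared with other genes or sites, since their counts were not whole in any of the 12 libraries, so the split of reads between the desaturase paralogs is uncertain. Counts of other members were not whole in some libraries, among them Scap in 11, Idi1, Fdps and Acaca in 10 each, Hmgcs1 in 9 and Srebf1 in 7. Those of Sqle, Lss, Stard4 and Fasn, among others, were whole in all 12.

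**Figure D1:**
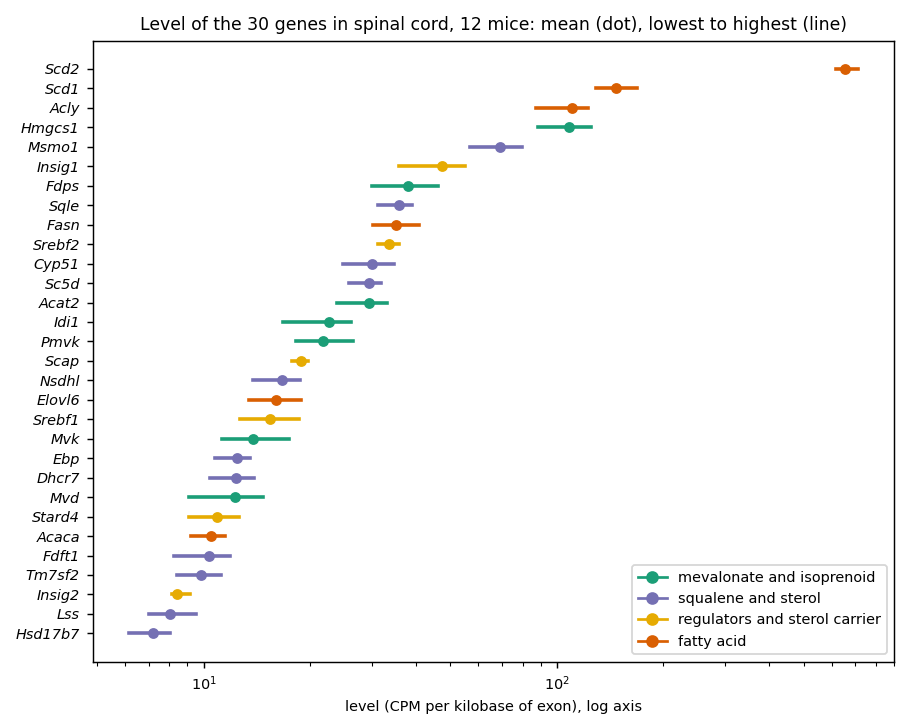
Level of each of the 30 genes in CPM per kilobase of exon, on a log axis, with the mean over the 12 mice as a dot, the lowest to highest mouse as a line and the role as colour. Scd2 lies at 656 and Hsd17b7 at 7.21 CPM per kilobase, and most neighbours overlap.

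The promoters of the members were searched for 3 motifs on both strands, in windows from 250 bases before to 50 bases after a transcription start, taken from RefSeq on GRCm38.p6. Promoters were found for 24 of the 30 members, with 32 starts. Fdft1, Fdps, Scd1, Scd2, Sqle and Stard4 had no entry. The motifs were the sterol regulatory element TCACNCCAC, at which SREBPs bind, the NF-Y box CCAAT and the Sp1 box GGGCGG, whose factors are known to work with SREBPs, and a match of one motif may share bases with a match of another. The sterol regulatory element in this strict spelling was in 1 of the 32 member promoters (3.12%), that of Hmgcs1, and in 1.24% of all 32851 promoters. CCAAT was in 21 of 32 (65.6%), against 37.4% of all promoters, and GGGCGG in 24 of 32 (75%), against 35.7%. Counted per gene, all 9 squalene and sterol genes with a promoter held both boxes. Of all 27025 genes, 41.1% held the NF-Y box and 38.2% the Sp1 box, each box taken alone. Of the 4 fatty acid genes with a promoter, 2 held the NF-Y box and 1 (25%) the Sp1 box. Each box was in 5 of the 6 mevalonate and isoprenoid genes. Of the 5 regulators, 4 held the NF-Y box and 5 the Sp1 box. A match describes letters in this window and does not show binding.

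The following windows are shown because they hold these boxes in genes whose values are given in full, or in Idi1 and Cyp51 of the same pathway, with the motif in capitals and each sequence written 5′ to 3′ on the strand of its gene. Inverted boxes read ATTGG. The Srebf1 and Fasn windows belong to starts inside the genes, as the count table bounds them, so that these boxes lie within the gene.
Hmgcs1, sterol regulatory element, chr13:119690204-119690233, plus strand: cgtcaccgtcTCACCCCACttcccaggtcc
Cyp51, NF-Y box, chr5:4104709-4104738, minus strand: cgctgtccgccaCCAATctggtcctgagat
Idi1, inverted NF-Y box, chr13:8885549-8885578, plus strand: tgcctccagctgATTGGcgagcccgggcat
Lss, inverted NF-Y box, chr10:76531531-76531560, plus strand: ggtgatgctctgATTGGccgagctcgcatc
Srebf1, inverted NF-Y box, chr11:60210484-60210513, minus strand: gcgcggctgctgATTGGccatgtgcgctca
Srebf2, inverted NF-Y box, chr15:82147122-82147151, plus strand: cttcgcgcgccgATTGGctaatgcaagcct
Fasn, inverted NF-Y box, chr11:120824589-120824618, minus strand: cctcggtgtccaATTGGtttcgatgtggag
Acly, Sp1 box, chr11:100528010-100528039, minus strand: ggtcaggcctgaGGGCGGggccaccacagc

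With the SOD1-G93A transgene the members were mostly at slightly lower levels, on both Plekhg5 backgrounds, but none passed the test across all genes. Averaged over both backgrounds, 28 of the 30 log2 fold changes were negative and 2 positive, with a median of −0.12, where the median over all 20155 genes tested was −0.01. edgeR's quasi-likelihood test with Benjamini-Hochberg adjustment called 0 of the 30, against 1.22% of all genes. At an unadjusted p under 0.05, 13 members were lower and 1 was higher, while 5.33% of all genes were lower and 9.39% higher. With the presence of Y-linked transcripts as a covariate, 9 members in either direction were under it, with 27 negative and a median of −0.13. Over the alternatives this number ran from 7 to 18. The share of all genes at this unadjusted p was not taken under the covariate or the other alternatives. Such counts, here and below, are therefore not set against all genes. DESeq2 called 3 members lower in the same comparison (Acly, Fasn and Scd1), with its prior on fold changes and also without it. Of the 33742 genes with a count it called 819 with the prior and 825 without it. Both SOD1-G93A means lay below both means without the transgene in 20 of the 30 members and in 20.3% of all genes, and above them in 0 of the 30 and in 19.6% of all genes. In whole tissue, fewer cells that make these transcripts and less transcript per cell cannot be told apart.

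In Plekhg5+/+ mice the transgene was associated with negative log2 fold changes in 24 members and positive ones in 6, with a median of −0.11 against 0.00 for all genes. edgeR called 0 of the 30, where 2.47% of all genes were called, and 5 members were lower and 1 higher at an unadjusted p under 0.05, against 7.51% and 10.6% of all genes. With the Y-linked covariate 6 members in either direction were under it, and over the alternatives 5 to 11. DESeq2 called 3 members without the prior (Srebf1 higher, Acly and Fasn lower) and 4 with it (also Scd1, lower). Of 33742 genes it called 1149 without the prior and 1196 with it. The SOD1-G93A mice lay below all Plekhg5+/+ mice in 7 members, and above them in 1, where 9.02% of all genes lay below and 11.6% above. In Plekhg5-/- mice 28 members were negative and 2 positive, with a median of −0.14 against 0.00. There edgeR called 0 of the 30 (0.00496% of all genes were called). DESeq2 called 0 members without the prior (43 of 33742 genes) and 0 with it (41 genes). In edgeR 3 members were lower and 0 higher at an unadjusted p under 0.05, against 2.1% and 3.27% of all genes. With the Y-linked covariate 1 member was under it, and over the alternatives 0 to 13. Groups lay apart in 7 members, each lower with the transgene, against 5.24% of all genes below and 7.26% above. The plot of the differences with standard errors shows both backgrounds side by side.

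**Figure D2:**
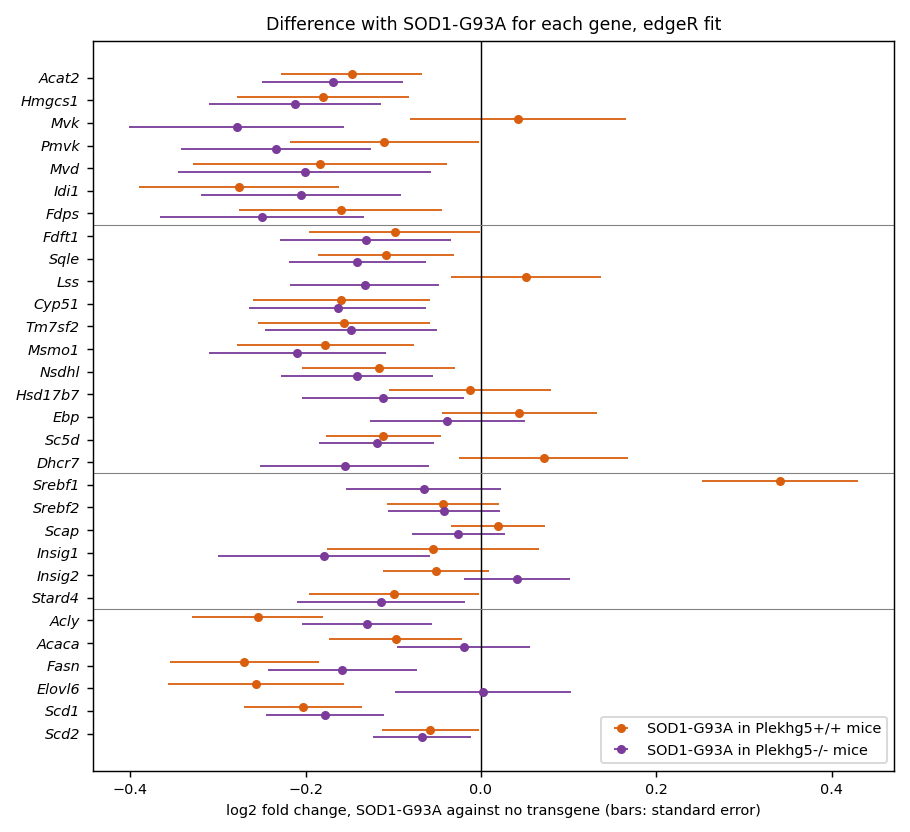
log2 fold change with SOD1-G93A for each of the 30 genes, in Plekhg5+/+ mice (orange) and in Plekhg5-/- mice (purple), with the standard error of the edgeR fit as bars and lines between the roles. Most points lie left of 0, and Srebf1 in Plekhg5+/+ mice lies farthest to the right at 0.34.

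The mevalonate and isoprenoid steps lead from acetyl-CoA to farnesyl diphosphate. All 7 of these genes had a negative log2 fold change with the transgene averaged over both backgrounds, from −0.24 (Idi1, the isomerase of the isoprenoid units) to −0.12, with a median of −0.19 and 0 called. Hmgcs1 (chromosome 13 from 119690351 to 119708260), the synthase of HMG-CoA, was at 425, 422 and 418 CPM in Plekhg5+/+, 458, 391 and 444 in Plekhg5-/-, 328, 373 and 415 in Plekhg5+/+ SOD1-G93A and 378, 326 and 412 CPM in Plekhg5-/- SOD1-G93A mice. The Plekhg5+/+ mice were nearly alike and lay just above all 3 Plekhg5+/+ SOD1-G93A mice, whereas the Plekhg5-/- genotypes overlapped. Averaged over both backgrounds its log2 fold change was −0.20 (SE, the standard error, 0.0693, adjusted p = 0.19, edgeR), with a 95% interval from −0.35 to −0.05.

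Of the 11 genes of the squalene and sterol steps, 10 were negative averaged over both backgrounds, from −0.19 (Msmo1, a methylsterol oxidase) to 0.00 (Ebp), with a median of −0.12 and 0 called. Sqle (chromosome 15 from 59315092 to 59331193) encodes squalene epoxidase, a rate-setting enzyme. It was at 107, 95.6 and 101 CPM in Plekhg5+/+, 104, 104 and 104 in Plekhg5-/-, 85.8, 94.2 and 102 in Plekhg5+/+ SOD1-G93A and 92.8, 86.6 and 104 CPM in Plekhg5-/- SOD1-G93A mice. One mouse of each SOD1-G93A genotype reached the range of the mice without the transgene, so the groups overlapped. The averaged log2 fold change was −0.12 (SE 0.0551, adjusted p = 0.316, edgeR). The late enzymes Lss, Hsd17b7, Ebp and Dhcr7 did not have both SOD1-G93A means below both other means, and neither did Mvk, the kinase of mevalonate.

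Lss (chromosome 10 from 76531565 to 76557139) had the smallest unadjusted p of the members between Plekhg5-/- and Plekhg5+/+ mice. It was at 48.1, 51.0 and 55.5 CPM in Plekhg5+/+, 58.9, 57.2 and 65.5 in Plekhg5-/-, 48.6, 54.5 and 57.1 in Plekhg5+/+ SOD1-G93A and 56.6, 50.1 and 58.9 CPM in Plekhg5-/- SOD1-G93A mice. All 3 Plekhg5-/- mice lay above the Plekhg5+/+ mice, while the SOD1-G93A genotypes overlapped. Its log2 fold change without the transgene was 0.23 (SE 0.0854, unadjusted p = 0.0178, adjusted p = 0.929, edgeR).

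For the transgene averaged over both backgrounds, the median of the 6 regulators and carriers was −0.02, closer to 0 than the medians of the enzymes. Of the 6, 5 were negative and 1 positive, from −0.12 (Insig1) to 0.14 (Srebf1). Srebf1 (chromosome 11 from 60199084 to 60224186), the positive one, encodes SREBP-1, best known for driving the fatty acid genes. It was at 82.1, 79.5 and 94.8 CPM in Plekhg5+/+, 98.2, 95.4 and 102 in Plekhg5-/-, 117, 104 and 104 in Plekhg5+/+ SOD1-G93A and 89.4, 86.5 and 106 CPM in Plekhg5-/- SOD1-G93A mice. All Plekhg5+/+ SOD1-G93A mice and all Plekhg5-/- mice lay above the Plekhg5+/+ mice, and the Plekhg5-/- SOD1-G93A mice overlapped every other genotype. In Plekhg5+/+ mice the log2 fold change with the transgene was 0.34 (SE 0.0889, 95% interval 0.15 to 0.53, adjusted p = 0.0639, edgeR). In Plekhg5-/- mice it was −0.07 (SE 0.0887, adjusted p = 0.953, edgeR). The interaction, the difference between these fold changes, was −0.41 (SE 0.126, unadjusted p = 0.00667, adjusted p = 0.406, edgeR). The interaction was called in 0 members and 0 genes (0%) by edgeR, with 1 member and 9.05% of all genes at an unadjusted p under 0.05, and DESeq2 called 0 members. Plekhg5+/+ SOD1-G93A mouse 1 had the highest Srebf1 level of all mice, and without it the fold change in Plekhg5+/+ mice was 0.28 (adjusted p = 0.246). Without Plekhg5+/+ mouse 3 Srebf1 passed the test (0.41, adjusted p = 0.045).

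Srebf2 (chromosome 15 from 82147269 to 82205379) encodes SREBP-2, the main driver of the sterol genes. It was at 179, 200 and 193 CPM in Plekhg5+/+, 186, 190 and 195 in Plekhg5-/-, 179, 190 and 188 in Plekhg5+/+ SOD1-G93A and 179, 175 and 200 CPM in Plekhg5-/- SOD1-G93A mice. The genotypes overlapped throughout. The log2 fold change with the transgene, averaged over both backgrounds, was −0.04 with a 95% interval from −0.14 to 0.06 (adjusted p = 0.75, edgeR), and with Plekhg5 loss it was 0.00 with an interval from −0.10 to 0.09 (adjusted p = 0.997, edgeR). Stard4, a carrier that moves cholesterol between membranes, was at 49.2, 58.9 and 65.0 CPM in Plekhg5+/+, 62.3, 65.3 and 68.3 in Plekhg5-/-, 49.9, 57.6 and 54.1 in Plekhg5+/+ SOD1-G93A and 60.1, 55.6 and 65.2 CPM in Plekhg5-/- SOD1-G93A mice. Genotypes with and without Plekhg5 overlapped. Averaged over both SOD1 backgrounds its log2 fold change with Plekhg5 loss was 0.17 (SE 0.0682, unadjusted p = 0.0265, adjusted p = 0.987, edgeR). Scap, the escort of the SREBPs, and Insig1 and Insig2, which hold it back in the endoplasmic reticulum, had averaged log2 fold changes with the transgene of 0.00, −0.12 and −0.01, with adjusted p-values of 0.984, 0.603 and 0.978 (edgeR).

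The fatty acid genes had the lowest median of the roles in Plekhg5+/+ SOD1-G93A against Plekhg5+/+ mice, at −0.23, with values from −0.27 (Fasn) to −0.06 (Scd2). All 6 were negative, 4 of them at an unadjusted p under 0.05 (7.51% of all genes were lower at it), and 0 were called. In Plekhg5-/- mice the median was −0.10, with values from −0.18 (Scd1) to 0.00 (Elovl6, an elongase). Scd1 (chromosome 19 from 44394450 to 44407709) was at 816, 726 and 726 CPM in Plekhg5+/+, 782, 774 and 722 in Plekhg5-/-, 626, 649 and 696 in Plekhg5+/+ SOD1-G93A and 695, 634 and 685 CPM in Plekhg5-/- SOD1-G93A mice. It was the only member in which all 6 SOD1-G93A mice lay below all 6 mice without the transgene, which held for 0.288% of all genes, while all 6 lay above in 0 members and in 1.52% of all genes. The log2 fold change was −0.20 (SE 0.0673, adjusted p = 0.132, edgeR) in Plekhg5+/+ and −0.18 (SE 0.0673, adjusted p = 0.841, edgeR) in Plekhg5-/- mice. Averaged over both it was −0.19 (SE 0.0476, 95% interval −0.29 to −0.09, adjusted p = 0.0734, edgeR). Over the alternatives the averaged value stayed between −0.21 and −0.16, with adjusted p-values from 0.00627 to 0.161.

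Fasn (chromosome 11 from 120805958 to 120825166), the synthase that builds palmitate, was at 380, 425 and 380 CPM in Plekhg5+/+, 348, 405 and 414 in Plekhg5-/-, 316, 346 and 321 in Plekhg5+/+ SOD1-G93A and 350, 316 and 380 CPM in Plekhg5-/- SOD1-G93A mice. The Plekhg5+/+ genotypes lay apart and the Plekhg5-/- genotypes overlapped. Its log2 fold change was −0.27 (SE 0.0848, adjusted p = 0.113, edgeR) in Plekhg5+/+ and −0.16 (SE 0.0847, adjusted p = 0.95, edgeR) in Plekhg5-/- mice. Acly (chromosome 11 from 100476352 to 100528000) was at 482, 544 and 503 CPM in Plekhg5+/+, 534, 518 and 537 in Plekhg5-/-, 386, 458 and 438 in Plekhg5+/+ SOD1-G93A and 511, 450 and 492 CPM in Plekhg5-/- SOD1-G93A mice. On both backgrounds the SOD1-G93A mice lay below the mice without the transgene. The log2 fold change was −0.25 (SE 0.0742, adjusted p = 0.0913, edgeR) in Plekhg5+/+ and −0.13 (SE 0.0741, adjusted p = 0.95, edgeR) in Plekhg5-/- mice. Without Plekhg5+/+ SOD1-G93A mouse 1, in which Acly was lowest, the former was −0.19 (adjusted p = 0.327).

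**Figure D3:**
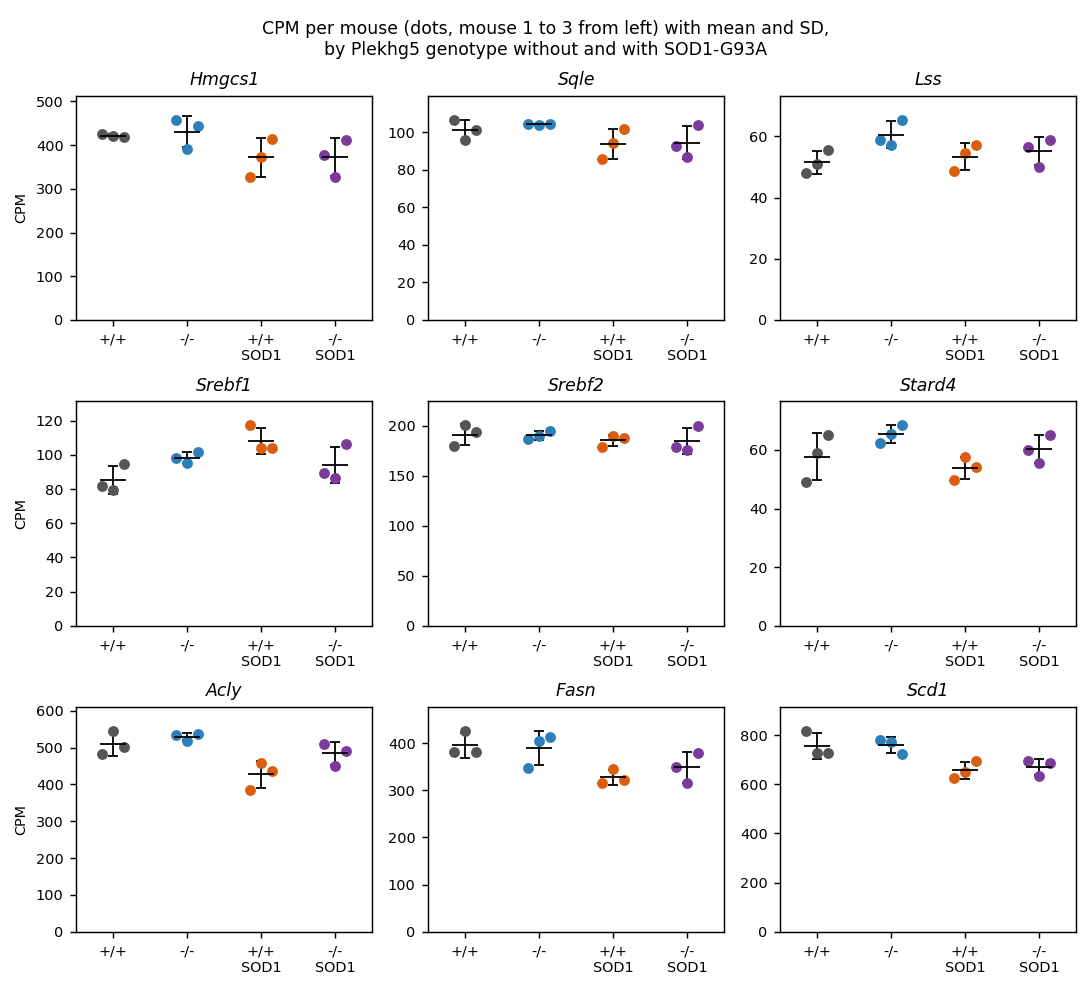
CPM of Hmgcs1, Sqle, Lss, Srebf1, Srebf2, Stard4, Acly, Fasn and Scd1 in each of the 12 mice (dots, mouse 1 to 3 from left), with the mean and SD of each genotype and axes from 0. All 6 SOD1-G93A mice lie below the other 6 for Scd1, while Srebf2 overlaps in all genotypes.

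Markers of several cell types moved with the transgene as well. Of 12 microglia markers, 11 rose in Plekhg5+/+ SOD1-G93A against Plekhg5+/+ mice and 0 of 12 passed in the Plekhg5-/- genotypes. Their summed level was 510 to 589 CPM in Plekhg5+/+, 556 to 770 in Plekhg5-/-, 975.4 to 1832 in Plekhg5+/+ SOD1-G93A and 723 to 806 CPM in Plekhg5-/- SOD1-G93A mice. Of 12 oligodendrocyte markers, 1 rose in Plekhg5+/+ SOD1-G93A mice (Opalin, log2 fold change 0.76, adjusted p = 0.0165, edgeR), a call lost without Plekhg5+/+ mouse 1 or mouse 2. There 8 of the 12 were positive and 4 negative, with a median of 0.09. In the Plekhg5-/- genotypes all 12 were negative with the transgene, with a median of −0.19, 0 called and 5 lower at an unadjusted p under 0.05 (2.1% of all genes). Without Plekhg5-/- mouse 1 that median was −0.08, with 10 negative and 1 lower at an unadjusted p under 0.05, and the median of the 30 members was −0.13. Averaged over both backgrounds 10 of the 12 oligodendrocyte markers were negative and 2 positive, with a median of −0.07 and 0 called. Without Plekhg5-/- mouse 1 the averaged median of these markers was −0.01. Their summed level was 25197 to 29195 CPM in Plekhg5+/+, 25264 to 33062 in Plekhg5-/-, 24608 to 29070 in Plekhg5+/+ SOD1-G93A and 23366 to 25398 CPM in Plekhg5-/- SOD1-G93A mice. None of the markers of either type was at 0 in a library. Their part in the differences of the members was not tested.

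Adipocyte markers, which mark cells that also express the fatty acid genes, had a summed level of 82.5 to 113 CPM in Plekhg5+/+, 43.8 to 280 in Plekhg5-/-, 42.8 to 77.9 in Plekhg5+/+ SOD1-G93A and 48.1 to 83.5 CPM in Plekhg5-/- SOD1-G93A mice. The highest was Plekhg5-/- mouse 2. Of the 11 markers Lep was at 0 in 10 of the 12 libraries and Cidec and Retn in 1 library each, and the other 8 were detected in every library. The 9 markers tested were all negative with the transgene on both backgrounds, and edgeR called 0. In Plekhg5+/+ mice their median was −0.61, with 0 lower at an unadjusted p under 0.05 (7.51% of all genes). In Plekhg5-/- mice it was −4.58, with 7 lower (2.1% of all genes), and averaged over both backgrounds −2.41, with 6 lower (5.33% of all genes). Without Plekhg5-/- mouse 2 these medians were −0.31, with 0 lower, and −0.81, with 1 lower. The part of these cells in the differences of the members was not tested. Without Plekhg5-/- mouse 2 the averaged log2 fold change of Scd1 was −0.18 and that of Fasn −0.20.

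In the SOD1-G93A genotypes most of the enzymes shared the same lowest and the same highest mouse. Summed over the 18 enzymes of the mevalonate, isoprenoid, squalene and sterol steps, the level was 1589, 1495 and 1551 CPM in Plekhg5+/+, 1668, 1517 and 1597 in Plekhg5-/-, 1245, 1433 and 1551 in Plekhg5+/+ SOD1-G93A and 1399, 1282 and 1549 CPM in Plekhg5-/- SOD1-G93A mice. Mouse 3 of each SOD1-G93A genotype was thus within the range of the mice without the transgene, and the other 4 SOD1-G93A mice were below it. Plekhg5+/+ SOD1-G93A mouse 1 was the lowest of its genotype in 17 of the 18 enzymes, where it was the lowest in 27.3% of all genes, and mouse 3 was the highest in 17 (33.5% of all genes). Among Plekhg5-/- SOD1-G93A mice, mouse 2 was the lowest in 17 of the 18 (33.5% of all genes) and mouse 3 the highest in 17 (32.3%). Plekhg5-/- mouse 1 was the highest of its genotype in 14 of the 18 (41% of all genes), while the lowest was mouse 1 in 2, mouse 2 in 9 and mouse 3 in 7. In Plekhg5+/+ mice the order was mixed, with mouse 1 the highest in 9, mouse 2 in 2 and mouse 3 in 7 of the 18, and the lowest in 3, 11 and 4. Plekhg5+/+ SOD1-G93A mouse 1 also had the highest summed microglia markers of all mice (1832 CPM). In Plekhg5-/- SOD1-G93A mice 1 to 3 the microglia markers were at 806, 781 and 723 CPM. The summed oligodendrocyte markers of mice 1 to 3 were at 29195, 25197 and 25438 CPM in Plekhg5+/+ and 33062, 25547 and 25264 in Plekhg5-/- mice. They were at 24608, 26530 and 29070 CPM in Plekhg5+/+ SOD1-G93A and 25398, 23366 and 25145 in Plekhg5-/- SOD1-G93A mice. The part of these cell types in the spread was not tested.

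**Figure D4:**
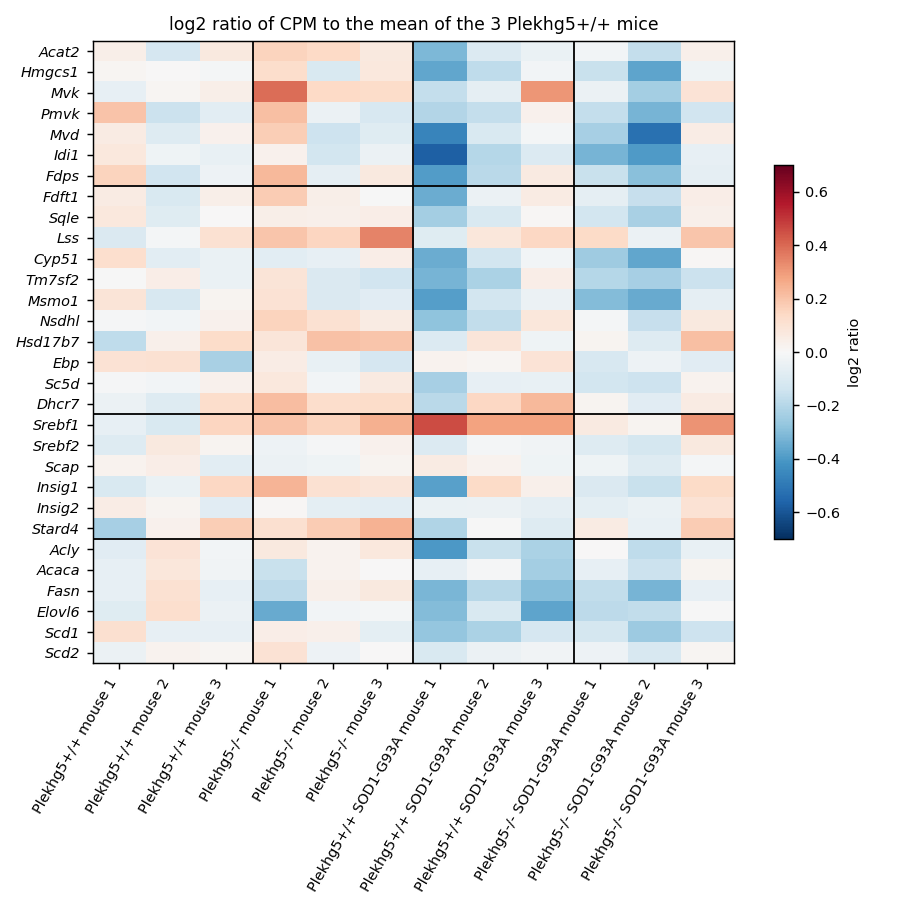
log2 ratio of CPM to the mean of the 3 Plekhg5+/+ mice, for the 30 genes (rows, in the order of the pathway with lines between the roles) and the 12 mice (columns). Plekhg5+/+ SOD1-G93A mouse 1 and Plekhg5-/- SOD1-G93A mouse 2 are blue over most of the 18 enzymes, and mouse 3 of each of these genotypes is not.

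**Figure D5:**
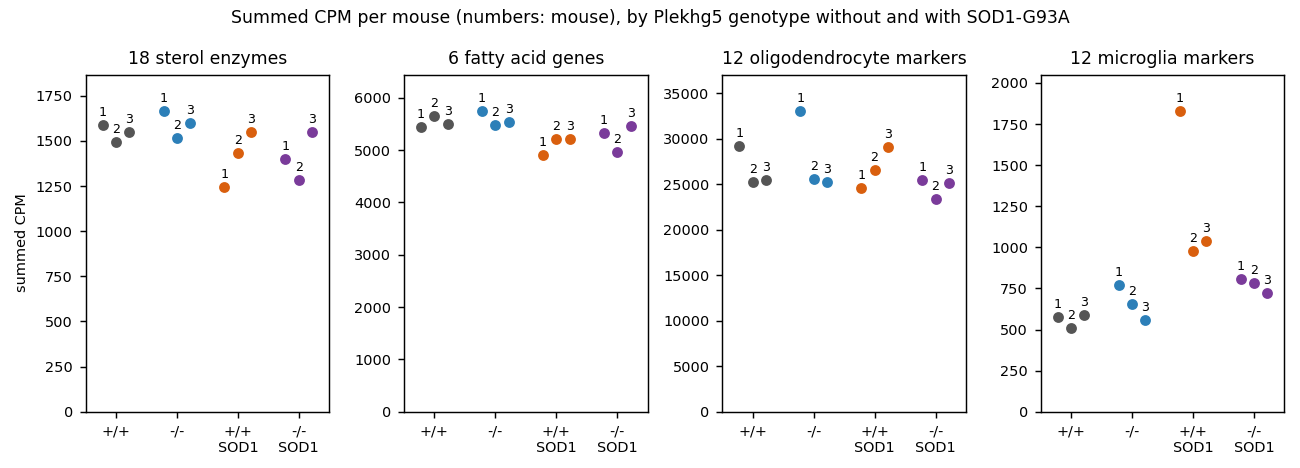
Summed CPM per mouse of the 18 sterol enzymes, the 6 fatty acid genes, 12 oligodendrocyte markers and 12 microglia markers, by genotype, with the number of the mouse at each point and axes from 0. The enzymes are lowest in Plekhg5+/+ SOD1-G93A mouse 1 (1245 CPM). That mouse has the highest microglia markers (1832 CPM) and the lowest oligodendrocyte markers of its genotype (24608 CPM).

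The sizes of these differences depended on those mice. Without Plekhg5+/+ SOD1-G93A mouse 1 the median of the 30 members in the Plekhg5+/+ genotypes was −0.05, with 22 negative, and without mouse 3 of that genotype it was −0.18, with 27 negative. Without Plekhg5-/- SOD1-G93A mouse 2 the median in the Plekhg5-/- genotypes was −0.08, with 27 negative, and without mouse 3 it was −0.20, with 30 negative. Averaged over both backgrounds, with each mouse left out in turn, the median stayed between −0.17 and −0.09, and between 26 and 29 members were negative. The coefficient of variation of the median member was 6.38% in Plekhg5+/+, 5.22% in Plekhg5-/-, 8.85% in Plekhg5+/+ SOD1-G93A and 7.59% in Plekhg5-/- SOD1-G93A mice, against 10.2%, 10.4%, 9.28% and 6.08% for the median gene tested.

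Loss of Plekhg5 was accompanied by small differences of both signs. Without the transgene 18 members were positive and 12 negative, with a median of 0.03, and edgeR called 0 of the 30 (0.0298% of all genes). At an unadjusted p under 0.05, 2 were higher and 0 lower, against 2.53% and 2.79% of all genes. In 5 members the Plekhg5-/- mice lay above the Plekhg5+/+ mice, against 4.71% of all genes, and in 0 members below them, against 4.03%. With the transgene 18 were also positive and 12 negative, with a median of 0.02, and 0 were called (0.0347% of all genes), with 1 higher and 1 lower at an unadjusted p under 0.05, against 3.59% and 5.05% of all genes. This balance turned on single mice. Without Plekhg5+/+ SOD1-G93A mouse 1 it was 9 positive and 21 negative (median −0.05), and without mouse 3 of that genotype 25 and 5 (median 0.06). Without Plekhg5-/- SOD1-G93A mouse 3 it was 8 and 22 (median −0.06), and without mouse 2 of that genotype 23 and 7 (median 0.07). Ebp, the sterol isomerase, was the 1 member whose Plekhg5-/- SOD1-G93A mice lay below the Plekhg5+/+ SOD1-G93A mice, against 10% of all genes, and in 0 members they lay above, against 9.47%. The smallest unadjusted p there was that of Acly, with a log2 fold change of 0.18 (SE 0.0742, unadjusted p = 0.0307, adjusted p = 0.539, edgeR). Averaged over both backgrounds 19 were positive and 11 negative, with a median of 0.02, and 0 were called (0.0546% of all genes), and without Plekhg5-/- SOD1-G93A mouse 3 it was 14 and 16 (median −0.01). At an unadjusted p under 0.05, 3 were higher (1.91% of all genes) and 0 lower (1.97%). DESeq2 called 0 members in each of these comparisons, with and without the prior. Of 33742 genes it called 18 to 116 in them.

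Other genes of the pathways were read from lists of 26 sterol and 31 fatty acid genes, all of which were tested. Of the sterol genes 1 rose with the transgene, in Plekhg5+/+ mice and averaged over both backgrounds, and 0 fell. It was Mylip, which encodes a ligase that marks lipoprotein receptors for degradation, with log2 fold changes of 0.62 (SE 0.131, adjusted p = 0.0295, edgeR) and 0.47 (SE 0.0923, adjusted p = 0.0358, edgeR). The median of the sterol list was −0.01 in Plekhg5+/+, 0.00 in Plekhg5-/- and −0.02 averaged, against −0.11, −0.14 and −0.12 for the members. Of the fatty acid list 0 were called by edgeR in any comparison. Averaged over both backgrounds 4 were higher and 4 lower at an unadjusted p under 0.05, against 9.39% and 5.33% of all genes, with a median of −0.02.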

How the data were processed

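Total RNA of 12 spinal cords was sequenced by the authors as stranded polyA libraries. Per their methods, reads were trimmed with Cutadapt, mapped with STAR to GRCm38.p6 plus the human SOD1 cDNA and counted on exons with featureCounts by strand, with fractions for reads on several sites or genes. The deposited values are therefore expected counts without normalization or filter, and 17.3% to 18.1% of the entries per library are not whole. The 12 columns were matched to the mice by genotype and number, and 0 columns were left without a sample.

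The counts were rounded, filtered with filterByExpr (20155 of 45906 genes kept) and scaled by TMM. The 4 genotypes were fitted together with edgeR version 4.0.16 in R version 4.3.3 (robust quasi-likelihood, 7 comparisons), with Benjamini-Hochberg adjustment over all genes tested and a threshold of 0.05. Models were tested on simulated data. CPM per kilobase uses the exon length in the table. The libraries held 30415643 to 38743628 counts. For a member such as Scd2, with 106935 to 141123 counts, the spread between mice rather than counting limits the precision. For a member such as Tm7sf2, with 400 to 566 counts, counting limits it as well. Libraries of a genotype differed by more than counting noise (chi-square over its degrees of freedom 5.42 to 25.9), and each was kept. The study describes the 3 samples of a genotype as biological replicates, and each is called a mouse here.

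The members and lists were chosen with earlier results of these data known, so no set test was made. Values per mouse are given for members with an adjusted p under 0.05 (none), for the member with the smallest unadjusted p in each comparison, and for Srebf1, Srebf2, Hmgcs1, Sqle, Fasn and Scd1. Genes of other lists are named where called, at most 4 per list and comparison. Members that mark the ends of a range, or are listed as overlapping or not, were named after their values were seen. Alternatives were DESeq2 version 1.42.0 with the study's fold change prior and without it, other scalings and filters, the compared genotypes alone, a replicate block, a Y-linked covariate, an adjusted p under 0.1 and each library left out. For the oligodendrocyte, adipocyte and endothelial markers, leaving out each library was chosen after seeing the data. Figures were drawn with matplotlib version 3.10.9 under Python version 3.11.15.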

Additional observations from a re-analysis of the deposited data

How the results depend on the processing

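The number of members called between Plekhg5+/+ SOD1-G93A and Plekhg5+/+ mice moved from 0 to 3 with DESeq2 without the prior, to 4 with it, to 2 at an adjusted p under 0.1 and to 1 with the replicate number as a block (Srebf1, adjusted p = 0.0405). Averaged over both backgrounds the number moved from 0 to 3 with DESeq2 without the prior, 3 with it and 3 at an adjusted p under 0.1. Calls over all genes moved as well. At an adjusted p under 0.1, edgeR called 1145 of 20155 genes in the Plekhg5+/+ genotypes and 733 averaged over both backgrounds. The cause of these moves was not tested. With each library left out the number of members called was 0 to 1 in both comparisons. Srebf1 was called without Plekhg5+/+ mouse 3 and Scd1 (adjusted p = 0.0446, edgeR) without Plekhg5+/+ SOD1-G93A mouse 3. In the other 5 comparisons it was 0 in every alternative. Without Plekhg5-/- SOD1-G93A mouse 3 the median of the regulators was −0.14 for the transgene in Plekhg5-/- mice and −0.07 for Plekhg5 loss with the transgene. No member value that had an unadjusted p under 0.05 (edgeR) changed sign, in 664 values under the alternatives. These values were picked by that p from the same mice. A change of sign was therefore unlikely from the start, and its absence says little about the direction. Of 18 same-numbered pairs of deviations, 5 correlated over 0.1, with a range from −0.16 to 0.34. Of the 12 libraries 6 correlated best with their own number. These values do not settle whether the replicate numbers pair the mice. With the block the calls over all genes rose from 498 to 631 in the Plekhg5+/+ genotypes and from 245 to 417 averaged over both backgrounds. The block changed no other call among the members. The calls over all genes moved with single libraries, from 2 to 771 in the Plekhg5+/+ genotypes and from 10 to 560 averaged over both backgrounds, and the compared Plekhg5+/+ genotypes alone gave 3 calls.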

Other observations

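The remaining cell type markers, summed per mouse, gave the following ranges. Schwann cell markers were at 130 to 366 CPM in Plekhg5+/+, 112 to 174 in Plekhg5-/-, 125 to 224 in Plekhg5+/+ SOD1-G93A and 341 to 482 CPM in Plekhg5-/- SOD1-G93A mice. In the comparisons of the transgene 0 of 9 were called by edgeR, and 8 were higher at an unadjusted p under 0.05 in the Plekhg5-/- genotypes (3.27% of all genes). Skeletal muscle markers were at 10.99 to 157, 14.7 to 57.5, 12.5 to 90.6 and 11.4 to 45.4 CPM in the same order of genotypes. Astrocyte markers were at 7795 to 8073, 7736 to 9393, 9484 to 12491 and 8706 to 8999 CPM, and Gfap (log2 fold change 1.23, adjusted p = 0.0198, edgeR) and Sox9 (0.81, adjusted p = 0.0206, edgeR) rose with the transgene in Plekhg5+/+ mice. Neuron markers were at 8010 to 8110, 7554 to 7934, 6441 to 7502 and 7168 to 7929 CPM, and motoneuron markers at 410 to 453, 426 to 447, 340 to 436 and 377 to 491 CPM. With the transgene in Plekhg5+/+ mice all 9 neuron markers (median −0.14) and all 8 motoneuron markers (median −0.25) were negative. Of each list 0 were called and 4 were lower at an unadjusted p under 0.05 (7.51% of all genes). In the Plekhg5-/- genotypes 5 of each were negative (medians 0.00 and −0.05). The part of these cells in the differences of the members was not tested. Endothelial markers were at 248 to 280, 193 to 302, 215 to 261 and 291 to 359 CPM, and with the transgene in Plekhg5+/+ mice 4 of 10 were positive and 6 negative (median −0.15). One of them, Ly6c1, fell (log2 fold change −0.56, adjusted p = 0.0361, edgeR), a call lost without any one of the Plekhg5+/+ mice, Plekhg5+/+ SOD1-G93A mouse 1 or 3 or Plekhg5-/- SOD1-G93A mouse 2. In the Plekhg5-/- genotypes all 10 were positive, from 0.24 to 0.55 (median 0.32), with 0 called and 4 higher at an unadjusted p under 0.05 (3.27% of all genes). Without Plekhg5-/- mouse 1 that median was 0.16, with 10 positive and 2 higher, and without Plekhg5-/- mouse 3 it was 0.51, with 10 positive and 7 higher.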
